A study of Rattus norvegicus with 18 samples.

Results

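The nuclear genes for subunits of the respiratory chain were examined in rat brain. They were taken as the protein-coding genes with names that begin with Ndufa, Ndufb, Ndufc, Ndufs or Ndufv and a digit, Uqcr, Cox4 to Cox8, or Atp5, or that are Sdha, Sdhb, Sdhc, Sdhd or Cyc1, with the row of the highest mean count where a name has several rows. The rule found 82 of the 34873 genes in the count table. By name, 35 belong to complex I, 4 to complex II, 8 to complex III, 18 to complex IV and 17 to complex V. Ndufa4 and Ndufa4l2 were counted under complex I by their names, although the NDUFA4 protein is now seen as a part of complex IV. Atp5s and Atp5sl entered by older names of genes that are not subunits of the ATP synthase itself.

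RNA was sequenced from brain in 3 groups of 6 libraries. The CLCF1 group holds rats with a knock-down of CLCF1, a cytokine of the interleukin-6 family, that also inhaled carbon monoxide. The CO group holds wild-type rats that inhaled carbon monoxide, and the NC group untreated wild-type rats. The gas was given at 1000 ppm for 40 min and then at 3000 ppm for 20 min, and carboxyhaemoglobin above 60% marked a successful model. The study's design text also describes depletion of macrophages with liposomes and their replacement with bone marrow-derived macrophages (BMDM), with lentiviral knock-down tested in BMDM. It does not say which groups received these cells, nor which cells of the sequenced brains carried the knock-down. The brain region, the time after exposure and the age and sex of the rats are not given in the labels. The labels do not say that libraries are separate animals, so p-values measure the spread between libraries, which may be technical.

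The respiratory chain of the inner mitochondrial membrane passes electrons to oxygen. Complexes I and II take electrons from NADH and succinate, complex III hands them to cytochrome c, complex IV reduces oxygen, and complex V, the ATP synthase, uses the proton gradient that complexes I, III and IV build. Carbon monoxide binds haemoglobin and can also bind the haem at the oxygen site of complex IV. All subunits of complex II and most of the others are made from nuclear genes, and the rest are encoded in the mitochondrial genome. Neurons depend heavily on this pathway for ATP.

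Library depth was 15.1 to 20.3 M counts. The brain label was borne out by 8 of 8 neuron markers with counts, which summed to 5154 to 6266 counts per 1000000 of the scaled library size (CPM) in the CLCF1 libraries, 5974 to 6388 CPM in the CO libraries and 4663 to 5182 CPM in the NC libraries. All CO libraries lay above all NC libraries in this sum. By the edgeR test used below, 3 of the 8 were higher and 0 lower in CO against NC. In CLCF1 against CO 0 were higher and 2 lower, and in CLCF1 against NC 1 was higher and 0 lower. Of all genes tested, 12.7%, 17.0% and 9.26% passed in these comparisons in either direction. The targeted gene, Clcf1, had 0 to 3 counts in the CLCF1 libraries, 80 to 118 in the CO libraries and 1 to 7 in the NC libraries. Choroid plexus markers were found for 6 of 6 listed genes and summed to 11.2 to 5925 CPM in the CLCF1 libraries, 0.630 to 35.8 CPM in the CO libraries and 2.03 to 107 CPM in the NC libraries. Pericyte markers, 9 of 9 found, summed to 99.8 to 173 CPM in the CLCF1 libraries, 63.4 to 132 CPM in the CO libraries and 147 to 234 CPM in the NC libraries. In CO against NC, 4 of 6 fibroblast and 4 of 9 pericyte markers were lower. So were 2 of 5 ependyma and 2 of 4 red cell markers, with 0 higher in these lists. Of all genes, 6.40% were lower in that comparison. The part of such differences in tissue make-up in the results below was not tested. In bulk brain RNA, fewer cells of a type and less RNA per cell cannot be told apart.

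Libraries 3 to 6 of each group stood apart from libraries 1 and 2. A gene was without counts in libraries 1 and 2 alike in 42660 cases, summed over the groups, and 0 of these genes had counts in the remaining 4 libraries of its group. For the 42 other pairs of libraries of a group, 220 to 923 genes with no count in both had a count in another library of the group. Whether libraries 3 to 6 are independent of libraries 1 and 2 was not tested. For genes that passed the test, and for several near its threshold, the log2 fold change from libraries 1 and 2 alone is therefore given as well. Fits that leave out 1 library are also given. They cannot test that independence, since the other libraries of the group stay in the fit. With 2 libraries a group the edgeR fit called 4 genes of all tested in CO against NC, 8 in CLCF1 against CO and 2 in CLCF1 against NC, so a call missed there says little of a gene.

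The summed levels of the 82 nuclear genes were close in the 3 groups. The summed counts of the 82 genes took 1.72% ± 0.12 of all counts in the CLCF1 libraries, 1.68% ± 0.12 in the CO libraries and 1.65% ± 0.03 in the NC libraries (SD, n = 6 each). The CLCF1 libraries ran from 1.54% to 1.90%, the CO libraries from 1.55% to 1.85% and the NC libraries from 1.62% to 1.71%. The NC range lies inside both of the others. No p is given for these sums.

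The ranges of the groups also overlapped for the nuclear genes of each complex. Complex I took 0.506% ± 0.036 of counts in the CLCF1 libraries, 0.484% ± 0.032 in the CO libraries and 0.490% ± 0.010 in the NC libraries. Complex II, the smallest set, took 0.0993% ± 0.0115 in the CLCF1 libraries, 0.0947% ± 0.0102 in the CO libraries and 0.0926% ± 0.0062 in the NC libraries. Complex III took 0.152% ± 0.012 in the CLCF1 libraries, 0.144% ± 0.009 in the CO libraries and 0.148% ± 0.007 in the NC libraries. In these the differences are within 1 SD of the CLCF1 libraries. Complex IV took 0.394% ± 0.044 in the CLCF1 libraries, 0.405% ± 0.030 in the CO libraries and 0.381% ± 0.006 in the NC libraries. Complex V took 0.569% ± 0.034 in the CLCF1 libraries, 0.550% ± 0.057 in the CO libraries and 0.542% ± 0.019 in the NC libraries (SD, n = 6 each throughout). The 13 protein genes of the mitochondrial genome took a far larger share, 11.5% ± 1.1 in the CLCF1 libraries, 10.0% ± 0.7 in the CO libraries and 12.2% ± 1.6 in the NC libraries. The plot of shares shows these values by library.

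**Figure D1:**
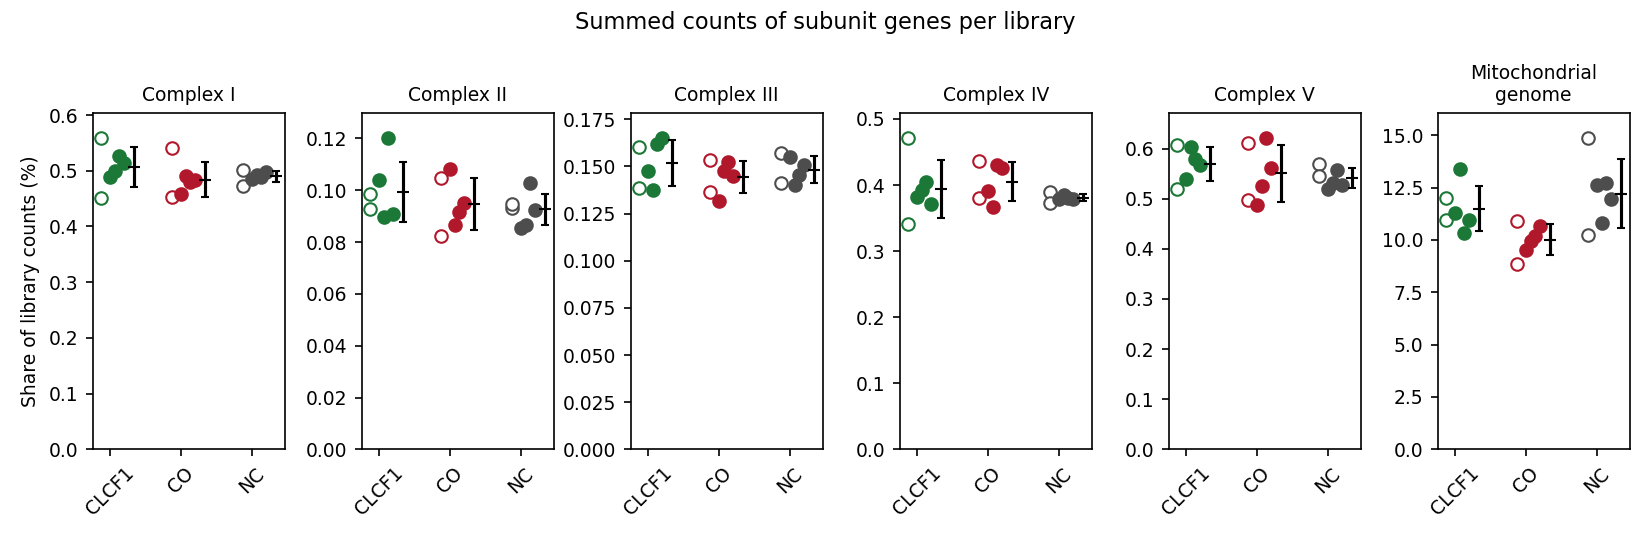
Share of all counts of a library (%) taken by the nuclear genes of each complex and by the 13 protein genes of the mitochondrial genome. Open points are libraries 1 and 2, filled points libraries 3 to 6, and the bar at the right of each group is the mean with its SD (n = 6). The groups overlap in every panel, and the NC libraries are the tightest for complex IV (0.373% to 0.389%).

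Of the 82 genes, 78 passed the filter on low counts. Ndufb4l1, Cox6c1 and Cox8c had no count in any library, and Cox7b2 averaged 1.72 counts. A row annotated with the Ndufb4l1 protein under another name, LOC688963, held 2850 to 4004 counts in the CLCF1 libraries. It held 1443 to 2526 in the CO libraries and 2311 to 3820 in the NC libraries, and the name rule left it out. The filter keeps a gene that is high in 1 group alone, so counts over the 78 are not counts over all 82. In CO against NC, 3 of the 78 rose and 0 fell at an adjusted p under 0.05 in edgeR's quasi-likelihood test, against 12.7% of all 16581 genes tested (6.32% higher and 6.40% lower). This is 3.85% of the subunit genes, and 14 of them had an unadjusted p under 0.05. In CLCF1 against CO, 2 rose and 0 fell (2.56%), against 17.0% of all genes (8.63% higher and 8.34% lower), with 10 at an unadjusted p under 0.05. The direction of these few calls depended on the setting: DESeq2 gave 5 higher and 3 lower, the fit without a filter 3 and 2, summed rows of the same protein 1 and 2, and the fit without CLCF1 library 1 gave 1 and 4. In CLCF1 against NC, 4 rose and 1 fell (6.41%), against 9.26% of all genes (4.43% higher and 4.84% lower), with 11 at an unadjusted p under 0.05. The 3 comparisons share libraries in pairs, so their counts are not separate evidence. No share of all genes at an unadjusted p under 0.05 is given, so no excess is read from those counts.

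By complex, the 34 tested genes of complex I gave 3 rises in CO against NC, 1 in CLCF1 against CO and 3 in CLCF1 against NC. These are 8.82%, 2.94% and 8.82% of the 34, beside 12.7%, 17.0% and 9.26% of all genes in either direction. The 15 tested genes of complex IV gave 0 calls in CO against NC, 1 rise in CLCF1 against CO, and 1 rise and 1 fall in CLCF1 against NC. These are 0.00%, 6.67% and 13.3% of the 15, beside the same shares of all genes. With so few genes, nothing particular to a complex is read from these calls. Complexes II (4 genes), III (8 genes) and V (17 genes) had 0 calls in each comparison by edgeR. At an unadjusted p under 0.05 complex V had 3 genes in CO against NC and 2 in CLCF1 against CO. It had 0 in CLCF1 against NC, and complexes II and III had 0 in each comparison. No share of all genes at that cut is set beside these counts.

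The median log2 fold change over the 78 genes was 0.02 in CO against NC, 0.03 in CLCF1 against CO and 0.06 in CLCF1 against NC, beside 0.01, 0.00 and 0.01 for all genes. The complex with the largest median in CO against NC was complex II, at 0.14, and complex V had the lowest, at -0.07. In CLCF1 against CO the medians of the complexes ran from -0.08 (complex IV) to 0.05 (complex V). In CLCF1 against NC they ran from 0.00 (complex III) to 0.08 (complex II). The typical standard error of a single gene was 0.13, which does not measure the error of a median over genes. No error is given for the medians, since the genes share their libraries.

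**Figure D2:**
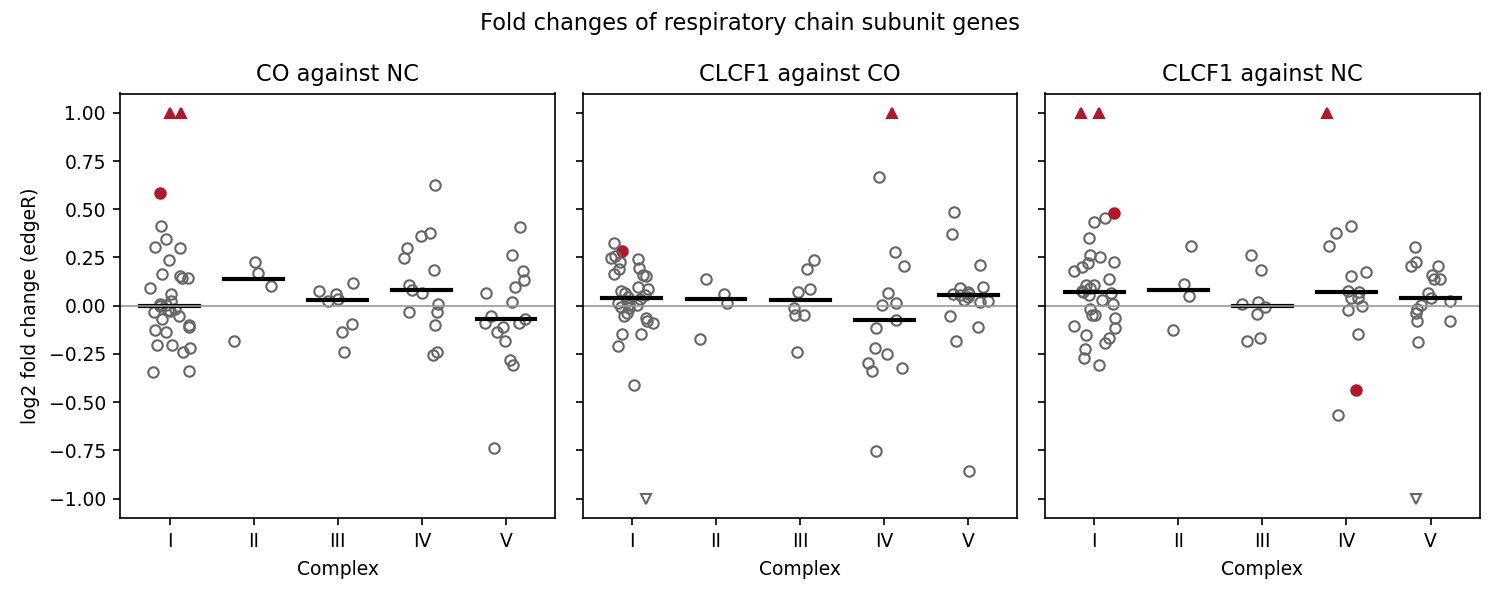
Log2 fold change of each of the 78 tested genes by complex, with 1 panel per comparison (edgeR). Red symbols passed an adjusted p of 0.05, grey open symbols did not, triangles at the edge lie beyond the axis limits, and black lines are medians, which lie between -0.08 and 0.14.

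With the libraries of a group taken as independent, the precision allows a limit to be put on most of these genes. That independence was not tested, and without it the 95% intervals could be too narrow. The 95% interval of the fold change lay wholly inside 1.5-fold in either direction for 60 of 78 genes in CO against NC, 66 in CLCF1 against CO and 62 in CLCF1 against NC. Among all genes tested the shares were 35.3%, 35% and 37.9%. Subunit genes are abundant, so the 66 with a mean count of 1000 or more were also set beside the 3552 genes of that level. Of these 66, 57 (86.4%) had such an interval in CO against NC, 62 (93.9%) in CLCF1 against CO and 58 (87.9%) in CLCF1 against NC, beside 65.5%, 66.7% and 71.6% of all genes of that level. In the same 66, 1, 1 and 2 passed the edgeR test (1.52%, 1.52% and 3.03%), beside 9.54%, 11.2% and 4.65% of all genes of that level. Their fold changes ran from -0.35 (Ndufv2) to 0.58 (Ndufc1) on the log2 scale in CO against NC. They ran from -0.41 (Ndufs7) to 0.49 (Atp5i) in CLCF1 against CO, and from -0.44 (Cox5b) to 0.48 (Ndufc2) in CLCF1 against NC.

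Promoters of respiratory chain genes are known for binding sites of NRF1, of the ETS factor GABP and of YY1. Promoters of 70 of the 82 genes were matched in RefSeq (build GRCr8), from 250 bases before to 50 after the gene start. They were searched on both strands for a 10-letter NRF1 motif (its matches are the 10 capitals together in Atp5i and in Uqcrc1 below), for CCGGAAG (ETS factors such as GABP) and for AAGATGGC (YY1). The first was present in 11 (15.7%) of the 70, beside 6.09% of 19005 protein-coding promoters, the second in 20 (28.6%) beside 11.2%, and the third in 14 (20.0%) beside 3.92%. At least 1 of the motifs was present in 37 (52.9%) beside 18.8%. Of the complexes, V had the largest share with the NRF1 letters (5 of 15), while complex IV had 0 of 14. Each motif was counted on its own. A match of letters is a description and not a binding site.

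The 150 bases before the gene start are shown for Uqcrc1, which has the NRF1 letters, and for Atp5i, Cox8a and Cox5b, which have the ETS letters and whose values in complexes IV and V are among those nearest to or past the threshold. Atp5i has both and Cox8a has the ETS letters more than once. Capitals mark the NRF1 and ETS letters on either strand. The YY1 letters of Atp5i, Uqcrc1 and Cox8a lie outside this stretch or across its end. The stretches lie at chr14:1464710-1464859 (plus strand) for Atp5i, chr8:118468073-118468222 (plus strand) for Uqcrc1, chr1:213833624-213833773 (minus strand) for Cox8a and chr9:46417687-46417836 (plus strand) for Cox5b, in build GRCr8.
Atp5i: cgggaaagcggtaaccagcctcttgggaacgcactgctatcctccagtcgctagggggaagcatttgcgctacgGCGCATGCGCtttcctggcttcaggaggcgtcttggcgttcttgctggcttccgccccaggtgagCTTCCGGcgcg
Uqcrc1: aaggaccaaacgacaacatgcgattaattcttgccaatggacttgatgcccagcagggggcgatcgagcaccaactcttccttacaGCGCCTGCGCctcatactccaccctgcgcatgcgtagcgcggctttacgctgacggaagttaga
Cox8a: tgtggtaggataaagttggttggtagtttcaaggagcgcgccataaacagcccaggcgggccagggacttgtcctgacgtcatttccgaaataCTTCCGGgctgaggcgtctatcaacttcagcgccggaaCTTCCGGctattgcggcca
Cox5b: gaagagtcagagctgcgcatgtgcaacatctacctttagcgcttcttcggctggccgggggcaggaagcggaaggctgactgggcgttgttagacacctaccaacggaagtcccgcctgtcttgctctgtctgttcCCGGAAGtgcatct
Genes with the NRF1 letters (11) had a median log2 fold change of -0.02 in CO against NC, 0.09 in CLCF1 against CO and 0.14 in CLCF1 against NC. Genes with the ETS letters (20) had -0.08, 0.01 and 0.05, those with the YY1 letters (14) 0.02, 0.06 and 0.06, and those with none (30) 0.02, 0.02 and 0.07.

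Complex I opens the chain, and its catalytic arm is built from the core subunits that bind flavin and iron-sulfur clusters. Ndufv1, which carries the flavin site, had a lowest, median and highest value of 199, 211 and 279 CPM in the CLCF1 libraries, 196, 239 and 290 CPM in the CO libraries and 212, 241 and 288 CPM in the NC libraries. The ranges of the 3 groups overlap almost wholly. Its log2 fold change was -0.03 ± 0.11 (SE) in CO against NC and -0.12 ± 0.11 in CLCF1 against NC. Ndufs1, the largest core subunit, had -0.22 ± 0.12 and -0.23 ± 0.12 in these comparisons. Ndufs3, a part of the arm that leads to ubiquinone, had -0.05 ± 0.11 in CO against NC. None of these passed the test.

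Ndufv2, a partner of Ndufv1 in the NADH module, was the lowest of the core subunits named here in CO against NC. It had 158, 197 and 223 CPM (lowest, median, highest) in the CO libraries and 194, 246 and 284 CPM in the NC libraries. The groups overlap, and the change of -0.35 ± 0.12 had an adjusted p of 0.066 in edgeR. Ndufs8, an iron-sulfur subunit next to the quinone site, had -0.34 ± 0.13 (adjusted p = 0.0903 in edgeR) and Ndufs7, its neighbour, 0.31 ± 0.15 (adjusted p = 0.174 in edgeR) in CO against NC. Ndufs7 stood at -0.41 ± 0.15 in CLCF1 against CO (adjusted p = 0.0628 in edgeR). From libraries 1 and 2 alone, Ndufv2 had -0.17 and Ndufs8 -0.25 in CO against NC, and Ndufs7 -0.30 in CLCF1 against CO. The core subunits named here therefore had values of both signs in CO against NC, and 0 of these 6 passed.

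The complex I genes that passed were accessory subunits and a row named as a pseudogene. Ndufc1 lies on chromosome 2 in the table (140462900 to 140464607; the table names no genome build) and encodes a small membrane subunit. It had 50.5, 70.3 and 100.1 CPM (lowest, median, highest) in the CLCF1 libraries, 56.7, 74.0 and 112 CPM in the CO libraries and 44.6, 54.8 and 63.3 CPM in the NC libraries. The upper libraries of CO stood clear of NC, but the groups overlap. It rose by 0.58 ± 0.18 on the log2 scale in CO against NC (adjusted p = 0.0378 in edgeR), and 8 of 18 fits without 1 library lost the call (adjusted p = 0.0518 to 0.0867), those without CO library 3, 4 or 6 or NC library 1, 2, 3, 4 or 5. Libraries 1 and 2 alone gave 0.24. In CLCF1 against NC the change was 0.43 ± 0.18 (adjusted p = 0.128 in edgeR).

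Ndufc2, which sits beside Ndufc1 in the membrane arm, had 119, 168 and 185 CPM in the CLCF1 libraries, 112, 134 and 179 CPM in the CO libraries and 90.5, 114 and 146 CPM in the NC libraries (lowest, median, highest). The CLCF1 libraries were the highest as a group, with overlap. It rose by 0.48 ± 0.14 in CLCF1 against NC (adjusted p = 0.0409 in edgeR), and 10 of 18 fits without 1 library lost the call (adjusted p = 0.0501 to 0.101), those without CLCF1 library 1, 4, 5 or 6, CO library 4 or 6, or NC library 2, 3, 5 or 6. From libraries 1 and 2 alone it was 0.34.

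Ndufb5, a subunit of the distal membrane arm, had 119, 145 and 152 CPM in the CLCF1 libraries, 105, 115 and 126 CPM in the CO libraries and 94.5, 121 and 134 CPM in the NC libraries (lowest, median, highest). A single CLCF1 library, number 2, fell within the CO range. It rose by 0.29 ± 0.10 in CLCF1 against CO (adjusted p = 0.0465 in edgeR). In 15 of 18 fits without 1 library the call was lost (adjusted p = 0.0521 to 0.107), all but those without CLCF1 library 2, CO library 1 or NC library 4. The fit of libraries 1 and 2 alone gave 0.19.

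Ndufa1, an X-linked subunit needed for complex I assembly, had the largest fold change and the least even counts. Its 6 CLCF1 libraries held 4, 250, 54, 104, 3 and 367 counts. The 6 CO libraries held 20, 913, 447, 260, 974 and 321, and the 6 NC libraries 10, 42, 3, 2, 0 and 1. The CO and NC groups overlap through CO library 1 and NC library 2 alone. The rise in CO against NC was 5.90 ± 1.15 on the log2 scale (adjusted p = 0.00358 in edgeR) and passed in 18 of 18 fits without 1 library. In CLCF1 against NC it rose by 3.72 ± 1.09 (adjusted p = 0.0386 in edgeR), a call lost in 8 of 18 such fits (adjusted p = 0.0546 to 0.0909), those without CLCF1 library 2, 4 or 6 or NC library 1, 3, 4, 5 or 6. In libraries 1 and 2 alone it was 4.48 in CO against NC and 2.18 in CLCF1 against NC.

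The Ndufa1 row is short, at 213 bases, and a second row annotated with the same protein, AC107580.1, lies on the same chromosome with a length of 469 bases. This row held 15 to 26 counts in the CLCF1 libraries, 14 to 24 in the CO libraries and 14 to 20 in the NC libraries, an even level in every group. Reads that fit both rows could be given to either, so the value of Ndufa1 is uncertain. Atp5f1 of complex V, a subunit of the stator stalk, is listed in 2 rows of 2063 bases each on chromosome 2. The row with the higher mean held 14 to 251 counts in the CLCF1 libraries, 10 to 867 in the CO libraries and 32 to 712 in the NC libraries. The other row held 49 to 92 counts in the CLCF1 libraries, 25 to 55 in the CO libraries and 25 to 48 in the NC libraries. The row with the higher mean thus varied far more between libraries of a group, and it passed no comparison (-0.74 ± 1.01 in CO against NC, -1.59 ± 1.03 in CLCF1 against NC).

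Ndufv3-ps1 is named as a pseudogene of Ndufv3, a subunit of the NADH module, but is listed as protein-coding, with a length of 327 bases. It had 0.700, 1.60 and 2.17 CPM in the CLCF1 libraries, 0.693, 1.15 and 1.78 CPM in the CO libraries and 0.168, 0.306 and 0.463 CPM in the NC libraries (lowest, median, highest). These are 11 to 40 counts in each library of the CLCF1 and CO groups and 3 to 10 counts in NC. All libraries of the CLCF1 and CO groups lay above all 6 of NC. It was the 1 gene of 78 whose groups did not overlap in each of these comparisons, against 5.63% of all genes in CLCF1 against NC and 6.35% in CO against NC. It rose by 1.98 ± 0.37 in CO against NC (adjusted p = 0.00298 in edgeR) and by 2.30 ± 0.37 in CLCF1 against NC (adjusted p = 0.00116 in edgeR), passing in 18 of 18 fits without 1 library each. The values from libraries 1 and 2 alone were 1.49 and 1.96. Ndufv3 itself had -0.02 ± 0.12 in CO against NC and -0.17 ± 0.12 in CLCF1 against NC and did not pass. Reads shared by the 2 rows could be given to either, so the value of the pseudogene row is uncertain.

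**Figure D3:**
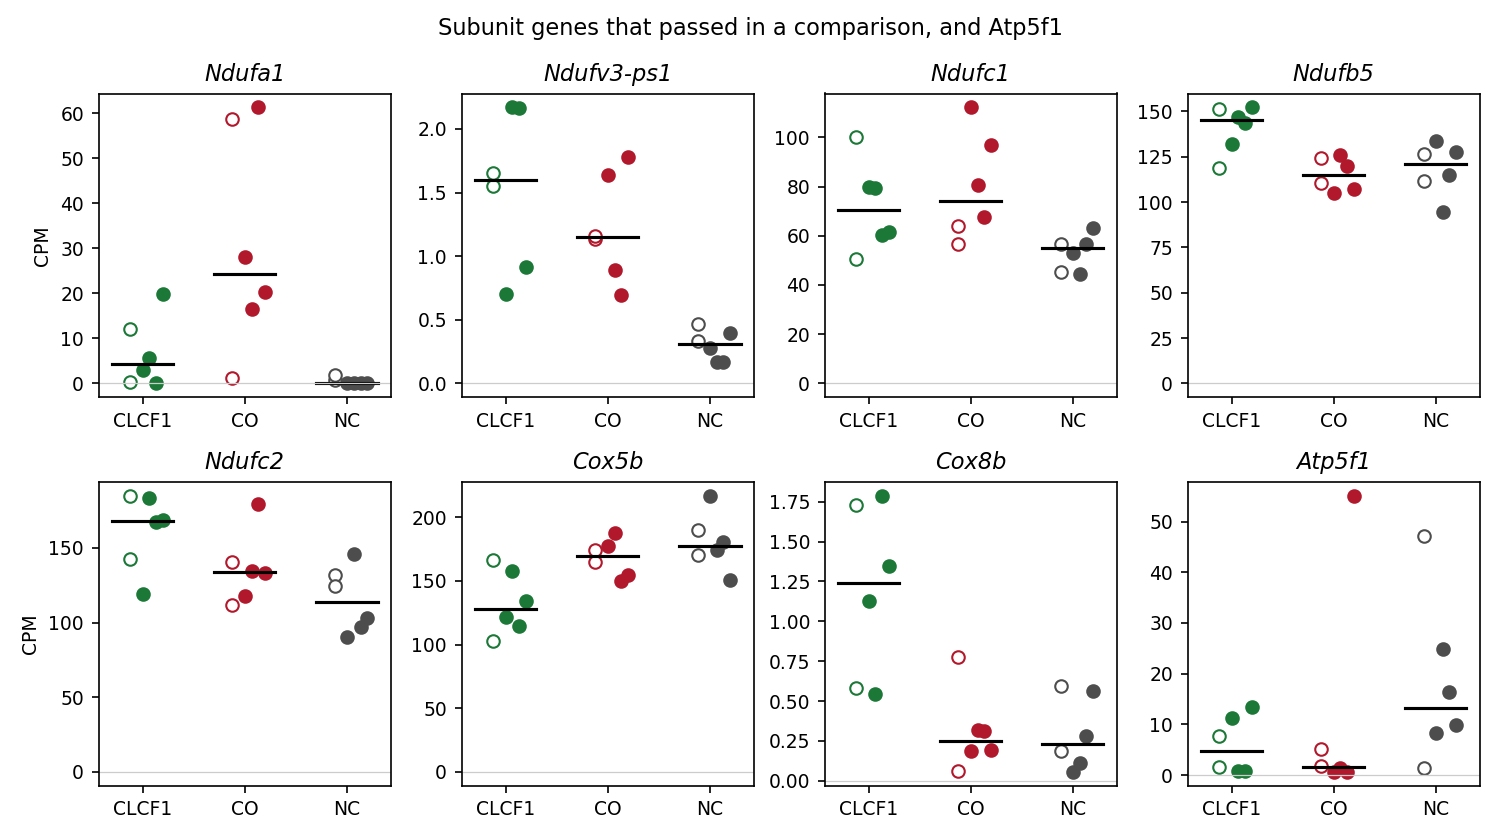
CPM of the 7 subunit genes that passed in a comparison and of Atp5f1, in each library of the CLCF1, CO and NC groups. Open points are libraries 1 and 2, filled points libraries 3 to 6, and the line is the median. Ndufv3-ps1 separates NC (at most 0.463 CPM) from the other groups (at least 0.693 CPM), and Ndufa1 and Atp5f1 spread widely within groups.

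Complex II is also an enzyme of the citrate cycle, and 0 of its 4 genes passed. Sdha, the flavoprotein, had 319, 355 and 663 CPM in the CLCF1 libraries, 315, 351 and 445 CPM in the CO libraries and 271, 328 and 367 CPM in the NC libraries (lowest, median, highest), with 1 CLCF1 library above all others. Its change was 0.17 ± 0.16 in CO against NC and 0.31 ± 0.16 in CLCF1 against NC, with 0.02 and -0.05 from libraries 1 and 2 alone. Sdhb, the iron-sulfur subunit, had 0.10 ± 0.14 and 0.11 ± 0.14. The membrane anchors Sdhc and Sdhd had -0.18 ± 0.12 and 0.23 ± 0.11 in CO against NC.

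Complex III had log2 fold changes of its 8 genes from -0.24 to 0.12 in CO against NC, from -0.24 to 0.24 in CLCF1 against CO and from -0.18 to 0.26 in CLCF1 against NC. All 8 had intervals inside 1.5-fold in each comparison, with the libraries of a group taken as independent. Uqcrc1, a core protein, had 317, 326 and 408 CPM in the CLCF1 libraries, 268, 340 and 362 CPM in the CO libraries and 270, 301 and 324 CPM in the NC libraries (lowest, median, highest). The groups overlap, and its change was 0.12 ± 0.09 in CO against NC and 0.19 ± 0.09 in CLCF1 against NC. Cyc1, the cytochrome c1 subunit that passes electrons to cytochrome c, had 0.06 ± 0.11 and 0.01 ± 0.11. Uqcrfs1, the Rieske iron-sulfur protein, had 0.02 ± 0.15 and 0.26 ± 0.15. Per length, Uqcrh, the hinge protein, was the highest of complex III (408 CPM per kb as a mean over 18 libraries) and Uqcrb the lowest (39.5 CPM per kb). In CO against NC the log2 fold change was -0.09 ± 0.12 for Uqcrh and -0.24 ± 0.16 for Uqcrb. A second row annotated with the Uqcrb protein, LOC685596, held 673 to 1108 counts in the CLCF1 libraries, 633 to 800 in the CO libraries and 524 to 1001 in the NC libraries. Its mean was 44.9 ± 4.4 CPM in the CO libraries and 41.8 ± 8.5 CPM in the NC libraries. For the Uqcrb row these were 36.7 ± 6.2 and 43.3 ± 9.7 CPM (SD, n = 6 each). The fold change of Uqcrb and its place as the lowest are therefore uncertain.

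Complex IV, the oxygen-consuming enzyme, held the gene with the highest level per length of the 82 nuclear genes. Cox4i1, the most abundant regulatory subunit, had 863, 1006 and 1263 CPM in the CLCF1 libraries, 819, 1013 and 1239 CPM in the CO libraries and 765, 1007 and 1095 CPM in the NC libraries (lowest, median, highest). These ranges largely coincide, and its change was 0.07 ± 0.12 in CO against NC and 0.00 ± 0.12 in CLCF1 against CO.

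Cox5b, a subunit of the matrix side, fell in CLCF1 against NC. It had 103, 128 and 166 CPM in the CLCF1 libraries, 150, 170 and 187 CPM in the CO libraries and 151, 178 and 217 CPM in the NC libraries (lowest, median, highest). The CLCF1 libraries were the low group, with 2 of them inside the ranges of both other groups. The change was -0.44 ± 0.12 in CLCF1 against NC (adjusted p = 0.0251 in edgeR), and it was lost without CLCF1 library 3 or 5 (adjusted p = 0.0514 and 0.0551). In CLCF1 against CO it was -0.34 ± 0.12 (adjusted p = 0.0548 in edgeR). Libraries 1 and 2 alone gave -0.43 in CLCF1 against NC.

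Cox5a, another nuclear subunit, ran from 164 to 186 CPM in the CLCF1 libraries and from 188 to 258 CPM in the CO libraries. It was the 1 gene of 78 whose groups did not overlap in CLCF1 against CO, against 7.12% of all genes. Its change of -0.30 ± 0.12 had an adjusted p of 0.0983 in edgeR. Cox8a, the smallest subunit, had 387, 465 and 525 CPM in the CO libraries and 316, 359 and 404 CPM in the NC libraries (lowest, median, highest). The groups overlap at the edge, and the change of 0.36 ± 0.12 had an adjusted p of 0.0536 in edgeR. In CLCF1 against CO it was -0.32 ± 0.12 (adjusted p = 0.0719 in edgeR). Cox6a1 had 0.38 ± 0.14 in CO against NC (adjusted p = 0.0893 in edgeR). Libraries 1 and 2 alone gave 0.23 for Cox8a and 0.35 for Cox6a1 in CO against NC, and -0.21 for Cox5a and -0.12 for Cox8a in CLCF1 against CO. These values missed the threshold, which does not show that the groups were alike.

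Several subunits of complex IV come in pairs, with 1 form made in most tissues and the other in muscle, lung or testis. Levels were compared per length, in CPM per kb of the gene length in the table, as means over 18 libraries. Cox4i1 stood at 1376 and Cox4i2, the lung form induced by low oxygen in cells, at 3.01. Cox6a1 stood at 1037 and its heart and muscle form Cox6a2 at 10.3, Cox6b1 at 410 and its testis form Cox6b2 at 5.91, and Cox8a at 804 and its heart and muscle form Cox8b at 1.88. Outside these pairs, Ndufa4 stood at 483 and the hypoxia-induced relative Ndufa4l2 at 3.38. The common form was thus far higher in each of the 5 pairs.

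**Figure D4:**
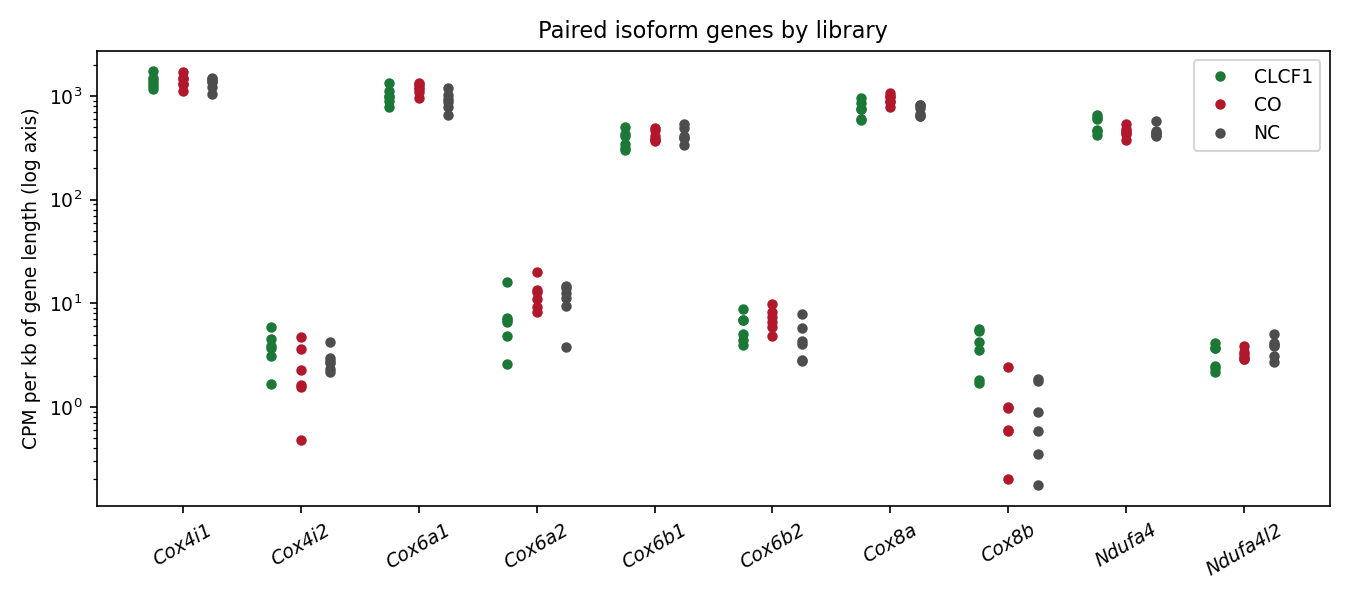
Level of 5 pairs of related genes in each library, in CPM per kb of gene length on a log axis, for the CLCF1, CO and NC groups. Each common form lies far above its minor form in every library, and the Cox8b median is highest in the CLCF1 libraries.

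Of the minor forms only Cox8b passed a test. It had 10 to 33 counts in the CLCF1 libraries (29, 12, 21, 10, 33 and 25), 1 to 13 in the CO libraries (13, 1, 3, 5, 5 and 3) and 1 to 10 in the NC libraries (9, 4, 1, 2, 5 and 10). The groups overlap, with 5 of 6 CO libraries below every CLCF1 library. It rose by 1.90 ± 0.54 in CLCF1 against CO (adjusted p = 0.0205 in edgeR), passing in 18 of 18 fits without 1 library, and by 1.98 ± 0.53 in CLCF1 against NC (adjusted p = 0.0261 in edgeR), lost in 5 of 18 (adjusted p = 0.0519 to 0.0567), those without CLCF1 library 5 or NC library 2, 3, 4 or 5. From libraries 1 and 2 alone it was 1.43 and 1.56. With libraries 3 to 6 alone Cox8b was not tested. The filter on low counts keeps a gene that is high in 1 group alone, and Cox8b was highest in the CLCF1 libraries. These calls are therefore not free of the filter, and fits without 1 library do not change that. Summed markers of striated muscle, 8 of 8 found with Myl2 at 0 in every library, were 46.9 to 58.9 CPM in the CLCF1 libraries, 33.6 to 55.5 CPM in the CO libraries and 38.7 to 48.3 CPM in the NC libraries. Ckm, Mb and Actc1 were also near 0, at most 0.298, 0.0663 and 0.819 CPM in any library. Most of the sum came from Acta1 and Tnnt2, so it does not show that muscle RNA was present. The part of these markers in the Cox8b value was not tested.

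The low-oxygen forms Cox4i2 and Ndufa4l2 did not pass. Cox4i2 had 1.75, 3.98 and 6.26 CPM in the CLCF1 libraries, 0.508, 2.07 and 5.04 CPM in the CO libraries and 2.31, 2.85 and 4.49 CPM in the NC libraries (lowest, median, highest). The ranges overlap widely. Its change was -0.25 ± 0.39 in CO against NC and 0.67 ± 0.39 in CLCF1 against CO. Ndufa4l2 had -0.24 ± 0.21 in CO against NC and -0.31 ± 0.21 in CLCF1 against NC. The heart and muscle form Cox6a2 and the testis form Cox6b2 did not pass either. Cox6a2 had -0.75 ± 0.37 in CLCF1 against CO (adjusted p = 0.163 in edgeR), and Cox6b2 0.63 ± 0.28 in CO against NC (adjusted p = 0.145 in edgeR).

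In complex V, which makes ATP, 0 of 17 genes passed in any comparison. Atp5b, the catalytic beta subunit and the highest of the set per length (963 CPM per kb), had 1599, 1761 and 1980 CPM in the CLCF1 libraries, 1466, 1656 and 2628 CPM in the CO libraries and 1256, 1619 and 1663 CPM in the NC libraries (lowest, median, highest). The groups overlap, with 1 CO library above the rest. The change was 0.26 ± 0.13 in CO against NC and 0.21 ± 0.13 in CLCF1 against NC. The alpha subunit Atp5a1 had -0.09 ± 0.17, the gamma subunit Atp5c1 0.09 ± 0.10 and the epsilon subunit Atp5e -0.14 ± 0.14 in CO against NC. The delta subunit Atp5d had 0.41 ± 0.15 (adjusted p = 0.0847 in edgeR). Atp5i, a membrane subunit, had 0.49 ± 0.18 in CLCF1 against CO (adjusted p = 0.0646 in edgeR). Libraries 1 and 2 alone gave 0.24 for Atp5d and 0.30 for Atp5i in these comparisons.

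Within a group the subunit genes moved together between library 1 and library 2. Among the 69 genes with a mean count above 500, 66 (95.7%) were higher in library 1 than in library 2 of the CLCF1 group, 59 (85.5%) in the CO group and 52 (75.4%) in the NC group. Of all genes above that level 55.1%, 54.1% and 44.1% were. The median difference in log2 CPM was 0.41, 0.29 and 0.20, larger than the median fold changes between groups given above. Among libraries 3 to 6 of a group, the 6 pairs gave at most 42, 40 and 43 of 69 genes in 1 direction, with medians from -0.06 to 0.08. In the CLCF1 group 51 to 58 of the 69 genes were higher in library 1 than in library 3, 4, 5 or 6, and 51 to 59 were lower in library 2. In the CO group these numbers were 40 to 57 and 42 to 48, and in the NC group 39 to 44 and 44 to 51. These counts are descriptions, since the genes share their libraries.

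**Figure D5:**
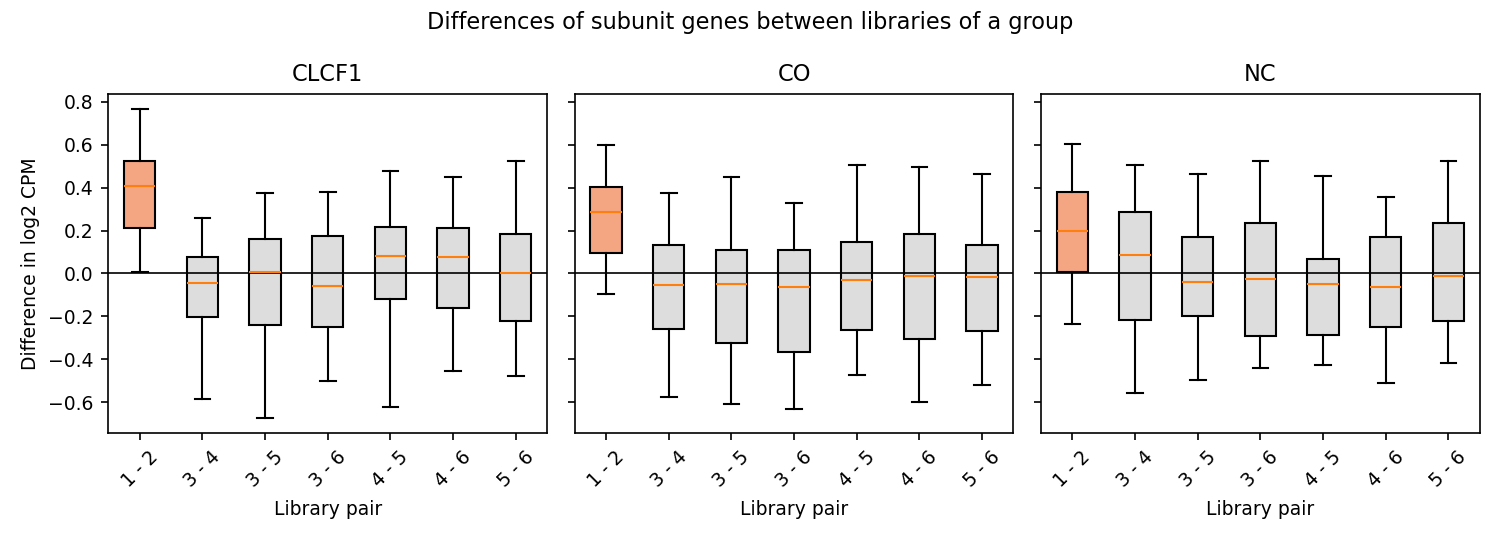
Difference in log2 CPM between 2 libraries of a group for the 69 subunit genes with a mean count above 500, for libraries 1 and 2 (orange) and each pair of libraries 3 to 6 (grey). Boxes span the quartiles with the median, and whiskers the middle 90% of genes. The orange boxes stand above 0, with medians of 0.41, 0.29 and 0.20 in the CLCF1, CO and NC groups.

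Among the regulators of mitochondrial gene expression, 13 genes were listed and tested. In CO against NC 1 rose and 0 fell, and in CLCF1 against CO 1 rose and 1 fell. In CLCF1 against NC 1 rose and 0 fell. These are 7.69%, 15.4% and 7.69% of the list, beside 12.7%, 17.0% and 9.26% of all genes. Nothing particular to the list is read from them. Gabpa, the DNA-binding subunit of GABP, had 28.4, 36.6 and 50.5 CPM in the CLCF1 libraries and 11.6, 18.7 and 31.3 CPM in the CO libraries (lowest, median, highest). The groups overlap slightly, and it rose by 0.82 ± 0.22 in CLCF1 against CO (adjusted p = 0.0142 in edgeR). Nrf1, the nuclear respiratory factor, had 9.04, 11.9 and 15.5 CPM in the CLCF1 libraries and 14.7, 18.2 and 24.8 CPM in the CO libraries. It fell by 0.64 ± 0.19 (adjusted p = 0.0244 in edgeR). Esrra, an orphan receptor that acts on these genes, rose by 0.52 ± 0.13 in CO against NC (adjusted p = 0.0161 in edgeR) and by 0.44 ± 0.13 in CLCF1 against NC (adjusted p = 0.0422 in edgeR). The coactivator Ppargc1a had 0.67 ± 0.62 in CO against NC and did not pass. The fit of libraries 1 and 2 alone gave 0.54 for Gabpa and -0.24 for Nrf1 in CLCF1 against CO, 0.30 for Esrra in CO against NC and 0.26 for it in CLCF1 against NC.

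Of 14 genes of cytochrome c and coenzyme Q, 4 rose and 0 fell in CO against NC, 0 rose and 3 fell in CLCF1 against CO, and 1 rose and 0 fell in CLCF1 against NC. These are 28.6%, 21.4% and 7.14% of the list, beside 12.7%, 17.0% and 9.26% of all genes, and with 14 genes nothing particular to the list is read from them. Cycs, somatic cytochrome c, had 279, 323 and 357 CPM in the CLCF1 libraries, 275, 329 and 406 CPM in the CO libraries and 232, 258 and 270 CPM in the NC libraries (lowest, median, highest). Every library of both exposed groups lay above every NC library. Groups did not overlap in 6.35% of all genes in CO against NC and in 5.63% in CLCF1 against NC. It rose by 0.41 ± 0.09 in CO against NC (adjusted p = 0.00878 in edgeR) and by 0.35 ± 0.09 in CLCF1 against NC (adjusted p = 0.025 in edgeR), with 0.20 and 0.33 from libraries 1 and 2 alone.

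Coq10b, a lipid-binding protein that serves coenzyme Q function, had 2.10, 28.3 and 39.4 CPM in the CLCF1 libraries, 66.4, 109 and 223 CPM in the CO libraries and 9.22, 34.4 and 76.4 CPM in the NC libraries (lowest, median, highest). All CO libraries were above all CLCF1 libraries, and 7.12% of all genes had groups that did not overlap in that comparison. It rose by 1.84 ± 0.52 in CO against NC (adjusted p = 0.0266 in edgeR) and fell by 2.26 ± 0.53 in CLCF1 against CO (adjusted p = 0.00752 in edgeR), with 1.53 and -1.65 from libraries 1 and 2 alone. Coq2, which attaches the tail of coenzyme Q, rose by 0.82 ± 0.19 in CO against NC (adjusted p = 0.0109 in edgeR). Adck3, a kinase-like protein of coenzyme Q synthesis now called Coq8a, rose by 0.47 ± 0.14 in CO against NC (adjusted p = 0.0348 in edgeR) and fell by 0.57 ± 0.14 in CLCF1 against CO (adjusted p = 0.00964 in edgeR). Coq3, a methyltransferase of the same pathway, fell by 0.36 ± 0.10 in CLCF1 against CO (adjusted p = 0.0218 in edgeR). In CO against NC, libraries 1 and 2 alone gave 0.45 for Coq2 and 0.41 for Adck3. In CLCF1 against CO they gave -0.36 for Adck3 and -0.18 for Coq3.

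Assembly factors of the complexes moved in few cases. In CO against NC, 0 of 15 complex I factors, 0 of 17 complex IV factors and 2 of 6 complex III factors passed, with Ttc19 higher (0.40 ± 0.13) and Uqcc2 lower (-0.44 ± 0.13; adjusted p = 0.0439 and 0.0323 in edgeR). Uqcc2 also fell by 0.48 ± 0.13 in CLCF1 against NC. Libraries 1 and 2 alone gave 0.35 for Ttc19 and -0.26 for Uqcc2 in CO against NC, and -0.31 for Uqcc2 in CLCF1 against NC. Among the complex IV factors, Cox16 rose by 0.83 ± 0.15 in CLCF1 against CO (adjusted p = 0.00145 in edgeR), with a highest value of 28.3 CPM and a median of 23.3 CPM in the CLCF1 libraries against 15.6 and 14.2 CPM in the CO libraries. Coa5 rose by 0.47 ± 0.14 (adjusted p = 0.0245 in edgeR) and the copper chaperone Cox17 fell by 0.57 ± 0.19 (adjusted p = 0.0397 in edgeR). Ecsit, a complex I assembly factor, rose by 0.33 ± 0.11 (adjusted p = 0.0426 in edgeR). From libraries 1 and 2 alone these were 0.64 for Cox16, 0.23 for Coa5, -0.17 for Cox17 and 0.15 for Ecsit. In all 93 tested genes of the 9 lists, 6 rose and 2 fell in CO against NC, 4 rose and 5 fell in CLCF1 against CO, and 3 rose and 1 fell in CLCF1 against NC. These are 8.60%, 9.68% and 4.30% of the 93, below the 12.7%, 17.0% and 9.26% of all genes. Calls that passed in 18 of 18 fits without 1 library were those of Cycs, Coq2 and Esrra in CO against NC, and of Coq10b, Adck3, Coq3, Gabpa and Cox16 in CLCF1 against CO. The other calls named in these lists were lost in 2 to 12 of the 18 fits, with adjusted p up to 0.109 in edgeR. These fits take the libraries of a group as independent, which was not tested. A call kept in all 18 is therefore not shown to be stable. The 13 subunits of the mitochondrial genome had 1 call, Mt-atp8, which fell by 0.58 ± 0.19 in CO against NC (adjusted p = 0.0468 in edgeR), with -0.45 from libraries 1 and 2 alone.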

How the data were processed

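RNA-seq of rat brain was analysed in 18 libraries, 6 in each of 3 groups, grouped and numbered by their titles. Each was made from 1.3 µg of total RNA with a SMARTER mRNA-Seq kit, per the labels' protocols. The values the authors deposited are unnormalized counts of reads per gene, in a single table. The aligner and counter used are not given in the sources at hand. Builds named in the submitters' processing notes are of mouse, whereas the gene IDs are of rat, so coordinates from the table are printed with no build. The labels say nothing of strand, and genes that overlap on opposite strands may share reads.

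Counts were scaled by TMM and filtered with filterByExpr (18292 of 34873 genes removed), and all libraries entered 1 robust quasi-likelihood fit in edgeR 4.0.16 (R 4.3.3). P-values were adjusted by Benjamini-Hochberg over 16581 genes, with a threshold of 0.05, two-sided. Errors of fold changes are standard errors, 95% intervals use the fit's degrees of freedom, and CPM values are counts per 1000000 of the TMM-scaled library size. The biological coefficient of variation was 0.312. The fit was tested on simulated data, with independent libraries and a lower coefficient of variation. That test therefore says nothing of dependence between libraries. Alternatives were DESeq2 1.42.0, limma-voom 3.58.1, other scalings and filters, fits of the 2 groups compared, a 1.5-fold threshold, a library-number block, libraries 1 and 2 or 3 to 6 alone, summed rows of the same protein, and leaving out each library.

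Named genes were isoform pairs and catalytic subunits, members that passed, the highest and lowest per length in each complex, and up to 6 passing genes per pathway list. Cox5a, Atp5i, Ndufv3 and Ppargc1a were named after their values were seen. Not every gene that the rule selects is reported here. The members and lists were chosen with earlier results of these data known.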

Additional observations from a re-analysis of the deposited data

Results flagged for a closer look

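In 9 of 123 sets of 6 libraries (42 named genes in 3 groups, less the 3 sets of Cox8c, which had no counts), the highest library stood apart from the rest by a gap larger than Dixon's 95% limit. Chance gives about 1 in 20 such sets. In the CLCF1 group these were Cox6a2 (7.70 CPM, next 3.40 CPM), Sdha (663 CPM, next 395 CPM) and Uqcrc1 (408 CPM, next 349 CPM). In the CO group they were Atp5c1 (440 CPM, next 360 CPM), Atp5f1 (55.1 CPM, next 5.14 CPM) and Cox8b (0.777 CPM, next 0.318 CPM). In the NC group they were Cox4i2 (4.49 CPM, next 3.10 CPM), Ndufa1 (1.94 CPM, next 0.663 CPM) and Ndufa4 (447 CPM, next 360 CPM).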

How the results depend on the processing

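The number of subunit genes that passed was 3 in CO against NC, 2 in CLCF1 against CO and 5 in CLCF1 against NC. In CO against NC it was 5 with DESeq2, 1 with limma-voom and 0 with libraries 1 and 2 alone. In CLCF1 against CO it was 1 with DESeq2 size factors, 5 with no filter, 1 with the stricter filter, 8 with DESeq2, 1 with a 1.5-fold threshold, and 0 with libraries 1 and 2 alone or libraries 3 to 6 alone. In CLCF1 against NC it was 3 with the stricter filter, 3 with the 2 groups only, 3 with a 1.5-fold threshold, 0 with libraries 1 and 2 alone and 2 with libraries 3 to 6 alone. Leaving out 1 library gave 2 to 4, 1 to 5 and 2 to 5 in these comparisons. Deviations of libraries with the same number had correlations of -0.03 to 0.15, over 0.1 in 1 of 18 pairs. Pairs numbered 1 or 2 ran from 0.004 to 0.15. Of 18 libraries, 7 correlated best with their own number. This check cannot exclude that the numbers pair some samples, and the main fit used no pairing. With the library number as a block the counts were 2, 2 and 4, with 1 higher and 1 lower in CLCF1 against CO. Counts over all genes were 2110, 2814 and 1536, and moved to 4291, 5645 and 4292 with no filter, 4170, 5254 and 3844 with DESeq2, 4, 8 and 2 with libraries 1 and 2 alone, and 918, 1436 and 736 with libraries 3 to 6 alone. The levels of the 5 complexes moved by less than 1 SD in all 225 values, but ratios near 1 crossed it. In CO against NC complex I was 0.988 (1.02 with libraries 1 and 2 alone), complex II 1.02 (0.993 as a share of protein-coding counts) and complex V 1.02 (0.986), so no direction is given. The causes were not tested. Genes with few counts, such as Cox8b, are limited by depth.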

Other observations

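A row named Cox7a2 on chromosome 14, listed as a processed pseudogene of 252 bases and so not among the 82 genes, held 429 to 751 counts in the CLCF1 libraries, 355 to 792 in the CO libraries and 69 to 428 in the NC libraries. Its mean was 31.9 ± 7.7 CPM in the CLCF1 libraries, 30.5 ± 10.6 CPM in the CO libraries and 8.38 ± 5.81 CPM in the NC libraries (SD, n = 6 each). The protein-coding Cox7a2 row averaged 216 ± 33 CPM in the CLCF1 libraries, 228 ± 30 CPM in the CO libraries and 192 ± 35 CPM in the NC libraries. Both rows carry the same protein annotation, and how reads were divided between them was not tested.

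A row named Ndufa13 on chromosome 7, not taken because another row of that name has more counts, held 11 to 95 counts in the CLCF1 libraries, 9 to 35 in the CO libraries and 2 to 18 in the NC libraries.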
